A study of Sus scrofa with 15 samples.

Results

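The blood-testis barrier junction genes described here are CLDN11, CLDN3, OCLN, TJP1, CXADR, GJA1, CDH2, ITGB1 and KRT8. They were listed by name for their place in the barrier's junctions, and all 9 of 9 were found among the 30476 genes of the count table and passed the filter on low counts that kept 15634 genes for testing. Their levels were followed in whole testes of male Dutch Landrace Duroc piglets at postnatal day 21, by sequencing the RNA of 15 animals, 3 for each of 5 diets, with a library for every animal. All piglets suckled until day 2, were then housed singly and fed from bowls. The Sow group received sow milk, the Milk group a formula based on cow's milk, and the Soy group a formula based on soy protein. The M + E2 group received the Milk formula with 17β-estradiol (E2) as an estrogen control, and the M + G group the Milk formula with genistein, a soy isoflavone, at 84 mg/L, which the methods give as the level in the diet and the labels as the level in serum. The Sow group therefore differed from the others in the whole diet, whereas M + E2 and M + G differed from Milk by the added compound. M + E2 was compared with both Sow and Milk, so the comparisons share samples.

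The barrier is a belt of junctions between neighbouring Sertoli cells, the somatic cells that line the seminiferous tubule and nurse the germ cells. It closes the inner part of the tubule off from blood and lymph, and it is assembled around puberty as Sertoli cells mature. Unlike most epithelial barriers it combines tight junctions, gap junctions and an actin-rich adherens junction called the basal ectoplasmic specialization at the same site, with desmosome-like contacts to intermediate filaments. Claudins and occludin form the sealing strands, TJP1 (also called ZO-1) ties them to actin, and connexin 43, encoded by GJA1, forms the channels between cells. Estrogens act in the testis on Sertoli, Leydig and germ cells, and the study asked how soy formula and estrogenic compounds change gene expression there in early life.

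Libraries held 6097552 to 9488579 reads on genes (median 8198038). Levels are given as CPM, read counts scaled to a common library size after TMM scaling, a correction for differences in RNA composition, and they are compared between libraries for 1 gene at a time, not between genes, since no transcript lengths were used. Members were covered by 1284 to 3932 reads per library for GJA1 and by 1707 to 3560 for ITGB1, but by only 20 to 102 for CLDN3 and 45 to 118 for OCLN, so these last genes carry the largest counting error. Sow 2 was the library least like the rest, with a lowest correlation of 0.871 to another library and 4 correlations below 0.9. It is shown in all levels and was left out of the tests, following the study's methods. Hence 2 Sow libraries enter the tests, and fits with all 3 are given where they change a call. TMM factors were 0.761 to 0.956 in Sow and 1.088 to 1.141 in M + E2, without overlap. The size of differences between these groups thus depends on the scaling. In 1 Sow and 1 Soy column the name carries no replicate number, and these libraries are called Sow unnumbered and Soy unnumbered. The tissue label was borne out by abundant transcripts of Sertoli cells (summed CPM of 13 markers 3414 to 8615) and of Leydig cells (4 markers, 10340 to 24568). In RNA from a whole testis, fewer cells of a type and less RNA per cell cannot be told apart.

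Junction genes followed no single direction across the diets. GJA1 and CXADR were highest in the Sow group, TJP1 was highest in M + E2, KRT8 was lowest in M + E2, and CLDN3 had its highest group means in M + E2 and M + G. Libraries of CLDN11 and OCLN overlapped between the groups in each comparison. Those of ITGB1 did so except in M + G against Sow. Those of CDH2 did so except in Milk and Soy against Sow and in Soy against M + E2. A gene was called different at an adjusted p of at most 0.05 and a change of at least 2-fold, by edgeR's quasi-likelihood F test over all 15634 genes. By this rule 0 of the 9 genes were called in any of the 8 comparisons. Over all genes the share called was 5% for M + E2 against Sow, 0.0576% for M + G against Sow, 0.0128% for Soy against Sow, 0.0192% for Milk against Sow and 0.147% for Soy against M + E2. Against Milk it was 0% for each of M + E2, M + G and Soy, where 17.7%, 2.6% and 2.44% of genes had an unadjusted p under 0.05, and DESeq2 called 1 of the 9 genes, CLDN3, in M + E2, where it called 0.78% of all genes.

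**Figure D1:**
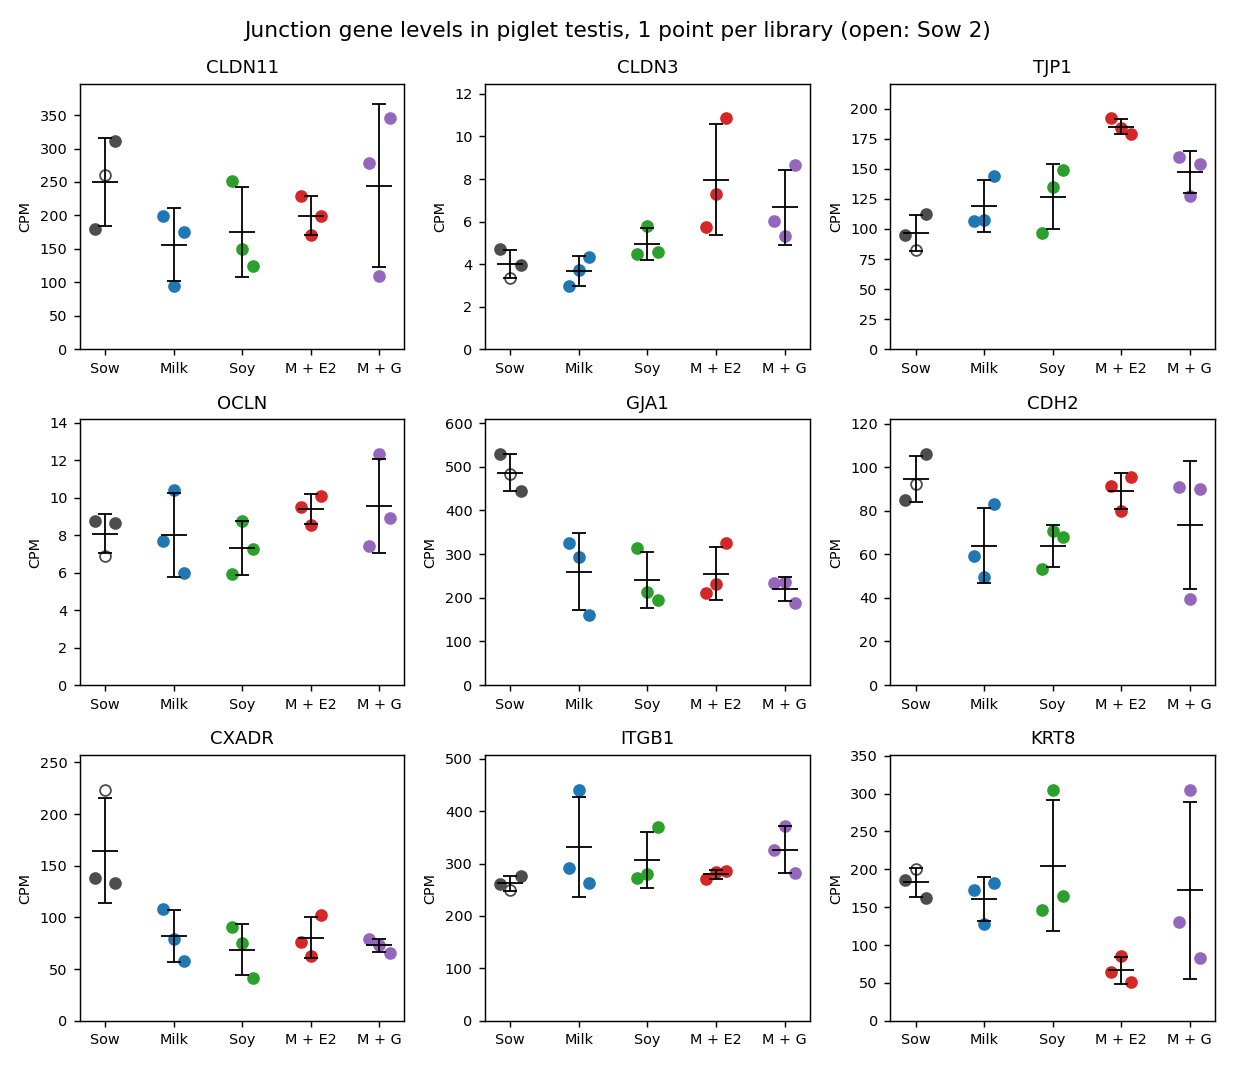
Level of each junction gene (CPM, linear axis from 0) in every library, by diet group. Points are piglets (3 per group), the open point is Sow 2, the horizontal bar is the group mean and the whiskers are 1 SD. GJA1 and CXADR lie higher in all 3 Sow libraries than in the 12 formula libraries, and TJP1 lies higher in the 3 M + E2 libraries (179 to 192 CPM) than in all others.

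Among the tight junction genes, TJP1 (chromosome 1, 144930387 to 145195857, RefSeq annotation of Sscrofa11.1), the scaffold beneath the sealing strands, showed the clearest difference. Its level was 95.3, 82.7 and 112 CPM in Sow unnumbered, Sow 2 and Sow 3, and 192, 184 and 179 CPM in the 3 M + E2 piglets. Milk piglets had 107, 107 and 144 CPM, Soy piglets 96.6, 135 and 149 CPM, and M + G piglets 160, 127 and 154 CPM. All 3 M + E2 libraries thus lay above the other 12, a pattern that 2.65% of all genes tested showed. Relative to Sow, TJP1 was 1.71-fold higher in M + E2 (log2 difference 0.77, SE 0.21, adjusted p = 0.0453 by edgeR), short of the 2-fold limit. It was the only junction gene of the 9 to pass the adjusted p alone, which 7.97% of all genes did. With all 3 Sow libraries the log2 difference was 0.94 (adjusted p = 0.00717), where 37.7% of all genes passed the adjusted p. Of 16 alternative analyses of TJP1, 13 passed the adjusted p. In the fit with 2 Sow libraries the adjusted p rose to 0.127, 0.129 and 0.0712 when M + E2 1, M + E2 2 or M + E2 3 was left out, with log2 differences of 0.73, 0.78 and 0.79. Relative to Milk, the formula without E2, TJP1 differed by 0.61 on the log2 scale (SE 0.18, adjusted p = 0.193), and all 3 M + E2 libraries again lay above all 3 Milk libraries.

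CXADR (chromosome 13, 182134416 to 182185977) encodes an adhesion protein of tight junctions that coxsackieviruses and adenoviruses use as receptor. CXADR had its highest mean in Sow, where TJP1 had its lowest, and near-equal means in M + E2 and Milk. Its level was 138, 223 and 133 CPM in Sow unnumbered, Sow 2 and Sow 3. The 12 formula libraries ranged from 41.5 to 109 CPM, and the group means were 82.1 ± 25.3 (Milk), 69.0 ± 25.1 (Soy), 80.4 ± 20.1 (M + E2) and 72.9 ± 6.7 (M + G; SD, n = 3 each). Every formula library was below every Sow library, which held for 7.61% of all genes, while 6.22% lay above in the same way. The log2 difference from Sow was −0.82 in M + E2 (SE 0.31, adjusted p = 0.0914), −0.93 in M + G, −0.98 in Soy and −0.76 in Milk, and none passed. Sow 2 decided this call. With all 3 Sow libraries in the fit, CXADR was lower in M + E2 by 1.03 (adjusted p = 0.0188) and in M + G by 1.17 (adjusted p = 0.0251) on the log2 scale, both called, where 18.1% and 10.3% of all genes were called. Between M + E2 and Milk the log2 difference was −0.06 (SE 0.28, 95% interval −0.66 to 0.55).

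Of the claudins and occludin, which make up the strands themselves, CLDN3 had the larger differences between diets. CLDN3 (chromosome 3, 11019073 to 11020102), a claudin of Sertoli cell tight junctions in mice, was measured at 5.76, 7.28 and 10.9 CPM in M + E2 and at 2.96, 3.72 and 4.36 CPM in Milk, without overlap. Group means were 4.01 ± 0.68 CPM in Sow, 4.95 ± 0.75 in Soy and 6.68 ± 1.77 in M + G (SD, n = 3 each). The log2 difference between M + E2 and Milk was 1.09 (SE 0.28, adjusted p = 0.186), the largest of the 5 tight junction genes described here, and it did not pass by edgeR, whereas DESeq2 gave an adjusted p of 0.0443. Against Sow the difference was 0.82 (SE 0.32, adjusted p = 0.0965). With all 3 Sow libraries it passed at 0.9961 (adjusted p = 0.0166), just under 2-fold, where 37.7% of all genes passed. Between M + G and Milk it was 0.86, with an unadjusted p of 0.00952 by edgeR and an adjusted p of 0.940. CLDN11 (chromosome 13, 109075672 to 109089097), the main claudin of the barrier in rodents, ran from 94.5 CPM in Milk 2 to 345 CPM in M + G 3. Its group means of 156 to 250 CPM had SDs of 29.0 to 122, and the M + E2 libraries, at 171, 199 and 229 CPM, lay inside the Sow range of 180 to 311 CPM except for 1. The log2 differences of M + E2 were −0.36 from Sow (SE 0.45, adjusted p = 0.601) and 0.33 from Milk (SE 0.40, adjusted p = 0.660). For OCLN (chromosome 16, 47600175 to 47652435) all 15 libraries lay between 5.92 and 12.3 CPM, with log2 differences of 0.05 from Sow (SE 0.28, adjusted p = 0.918) and 0.20 from Milk (SE 0.25, adjusted p = 0.654) in M + E2. The 95% interval of the OCLN difference from Sow, −0.55 to 0.65, leaves room for changes of about that size in either direction.

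GJA1 (chromosome 1, 40988818 to 41002129), the connexin through which Sertoli cells couple to one another and to germ cells, had its Sow libraries above all others, as CXADR did. It was measured at 529, 485 and 445 CPM in Sow unnumbered, Sow 2 and Sow 3. Milk libraries had 325, 294 and 160 CPM, Soy libraries 313, 213 and 195 CPM, M + E2 libraries 210, 231 and 325 CPM, and M + G libraries 233, 237 and 187 CPM. No formula library reached the lowest Sow library, and the 4 formula groups, with means of 219 to 260 CPM, overlapped one another. Relative to Sow the log2 difference was −1.19 in M + G (SE 0.30, adjusted p = 0.124), −1.03 in Soy (SE 0.30, adjusted p = 0.320) and −0.999 in M + E2 (SE 0.30, adjusted p = 0.0556). In Milk it was −0.95 (SE 0.30, adjusted p = 0.369). These comparisons share the same Sow libraries and are not independent. DESeq2 called GJA1 in M + G against Sow (−1.18, adjusted p = 0.0172), where it called 2.11% of all genes. With all 3 Sow libraries, GJA1 was called lower in M + G (log2 difference −1.15, adjusted p = 0.0220), where 10.3% of all genes were called. In M + E2 it passed the adjusted p at −0.93 (adjusted p = 0.0173), where 37.7% of all genes passed. It did not pass in Soy (adjusted p = 0.0651) or Milk (adjusted p = 0.0903), where 0.0261% and 0.0587% of all genes were called. Between M + E2 and Milk the difference was −0.05 on the log2 scale (SE 0.28, 95% interval −0.65 to 0.54).

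CDH2 (chromosome 6, 112396713 to 112629073) encodes N-cadherin, the cadherin of the basal ectoplasmic specialization. Its levels were 85.2, 92.4 and 106 CPM in the Sow libraries and 91.7, 80.1 and 95.7 CPM in M + E2. Milk libraries had 59.4, 49.7 and 83.0 CPM, Soy libraries 53.1, 70.9 and 67.8 CPM, and M + G libraries 91.0, 39.7 and 90.1 CPM. M + E2 overlapped with Sow (log2 difference −0.16, SE 0.31, adjusted p = 0.738) and with Milk (0.45, SE 0.28, adjusted p = 0.376), whereas the Milk and Soy libraries all lay below the Sow libraries without passing the test (log2 differences −0.62 and −0.59, adjusted p = 0.429 and 0.347). ITGB1 (chromosome 10, 56078393 to 56130608), the β1 integrin that anchors cells to the basement membrane, had the narrowest range of the 9, 1.76-fold from the lowest to the highest library, with group means from 262 to 331 CPM. Its log2 difference in M + E2 was −0.004 from Sow (SE 0.23, adjusted p = 0.991) and −0.26 from Milk (SE 0.21, adjusted p = 0.481).

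KRT8 (chromosome 5, 18172423 to 18180277), a keratin of intermediate filaments that immature Sertoli cells of several species contain, was lowest with E2. M + E2 libraries had 64.6, 85.8 and 50.7 CPM. Sow libraries had 186, 200 and 162 CPM, and Milk libraries 173, 128 and 182 CPM, both without overlap with M + E2. Soy libraries had 146, 305 and 164 CPM and M + G libraries 130, 305 and 82.9 CPM, so that M + G 3 fell within the range of M + E2. KRT8 was 2.72-fold lower in M + E2 than in Sow (log2 difference −1.44, SE 0.45, adjusted p = 0.0575) and 2.44-fold lower than in Milk (−1.29, SE 0.41, adjusted p = 0.204), and it was 3.18-fold higher in Soy than in M + E2 (1.67, SE 0.42, adjusted p = 0.149). These were the largest differences of the 9 genes in each of the 3 comparisons, and none passed. With all 3 Sow libraries the difference from Sow was the same in size, −1.44, and was called (adjusted p = 0.0152), where 18.1% of all genes were called. DESeq2 on the 14 libraries called it lower in M + E2 than in Sow (adjusted p = 0.0175) and higher in Soy than in M + E2 (adjusted p = 0.00756), where it called 8.5% and 0.915% of all genes. KRT18, the usual partner of KRT8 in a filament, had 1 to 180 reads per library, too few for its level to be followed.

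**Figure D2:**
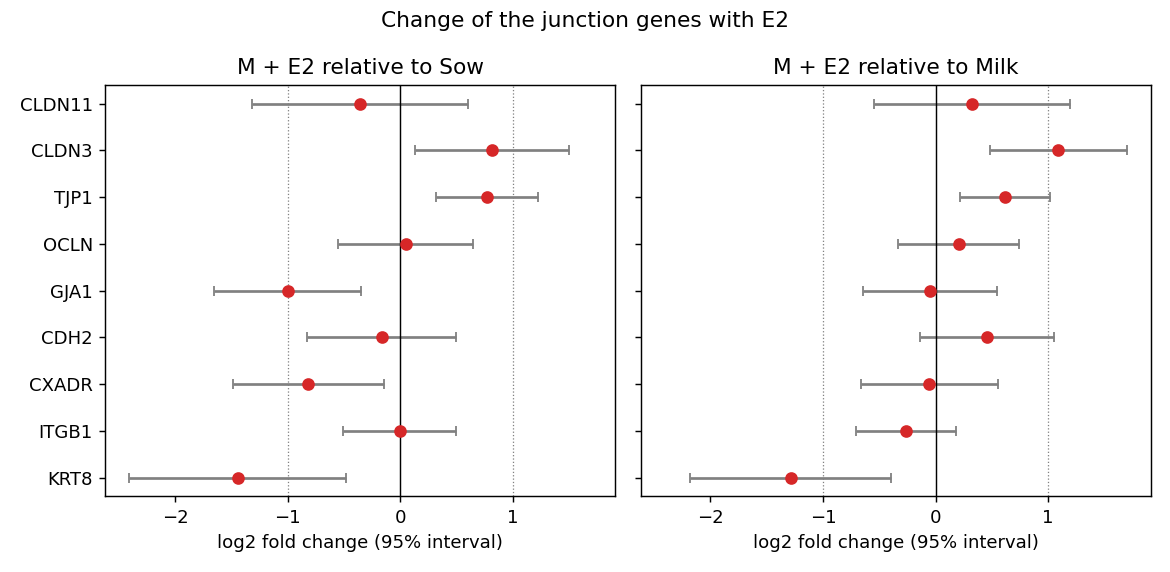
Log2 fold change of the 9 junction genes in M + E2 relative to Sow (left; 3 against 2 libraries) and relative to Milk (right; 3 against 3). Points are estimates from edgeR, whiskers are 95% intervals, and dotted lines mark 2-fold. TJP1, CLDN3 and KRT8 lie on the same side in both panels with intervals that leave out 0, whereas those of GJA1 and CXADR leave out 0 only on the left. The intervals are not adjusted for the number of genes tested. Only TJP1 relative to Sow passed the adjusted p.

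As a group, the junction genes were read against all genes tested. In M + E2 against Sow, 3 were higher and 6 lower, with a median log2 difference of −0.16 against 0.01 over all genes. An unadjusted p under 0.05 was reached by 5 of 9 genes where 33.8% of all genes reached it, and 5 of 9 had libraries that did not overlap between the groups, against 58.8% of all genes. In M + E2 against Milk the same counts were 3 of 9 for the unadjusted p (17.7% of all genes) and 3 of 9 without overlap (17.4%), and in Soy against M + E2 they were 3 (13%) and 3 (20.6%). An unadjusted p under 0.05 was reached by 3 genes in M + G against Sow (23.6% of all genes), 2 in Soy against Sow (15%), 2 in Milk against Sow (12.1%), 1 in M + G against Milk (2.6%) and 0 in Soy against Milk (2.44%). A test of any difference among the 5 diets was passed by 0 of the 9 genes at an adjusted p of 0.05 (0.064% of all genes) and by 5 at an unadjusted p under 0.05 (18.1%). The 9 genes were as variable as others, with a median within-group SD of 0.35 on the log2 scale against 0.34 over all genes tested.

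A library-wide measure, the summed level of ribosomal protein genes, was related across libraries to the levels of GJA1, CXADR and TJP1. The summed level of 53 ribosomal protein genes was 59849 to 111980 CPM in Sow and 25938 to 40489 CPM in M + E2, and it ranged from 23701 to 59299 CPM in Milk and Soy. Across the 15 libraries the level of GJA1 followed this sum (Pearson's r = 0.907, p = 1e-05, the smallest p that 100000 permutations can give, and Spearman's rho = 0.921, p = 1e-05, both adjusted p = 0.00027 over 27 relations). CXADR also followed it (r = 0.881, permutation p = 2e-05, adjusted p = 0.00027; rho = 0.857, p = 0.00012, adjusted p = 0.00162). TJP1 ran against it (r = −0.853, permutation p = 8e-05, adjusted p = 0.00072; rho = −0.746, p = 0.00197, adjusted p = 0.0177). Without the 2 libraries farthest from the median, Sow 2 and Soy 3, r was 0.891 for GJA1, 0.793 for CXADR and −0.822 for TJP1. Within the 12 formula libraries it was 0.881, 0.710 and −0.736. Both values of a point come from 1 library and share its scaling. How many of all genes follow the sum as closely was not counted. The relations are thus not shown to be particular to the junction genes. The permutations moved libraries across diets, so their p-values also take in the differences between diet groups.

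Levels in libraries with like ribosomal sums were as follows. Milk 1, Milk 2, Soy unnumbered and Sow 3 had 57256, 59299, 58952 and 59849 CPM of ribosomal protein transcripts. GJA1 was 325, 294 and 313 CPM in the first 3 of these and 445 CPM in Sow 3, and CXADR was 109, 79.6 and 90.6 CPM against 133 CPM. For TJP1, the 3 M + E2 libraries stood at 179 to 192 CPM, whereas M + G 1, M + G 2, M + G 3, Milk 3, Soy 2 and Soy 3, which had ribosomal sums of 23701 to 41656 CPM, stood at 127 to 160 CPM. These orders were fixed beforehand for any choice of libraries. For GJA1 and CXADR all Sow libraries lay above all formula libraries, and for TJP1 all M + E2 libraries lay above all others. The values are those of single libraries, with 1 from the Sow group, and whether the diets differ apart from the ribosomal sum was not tested.

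**Figure D3:**
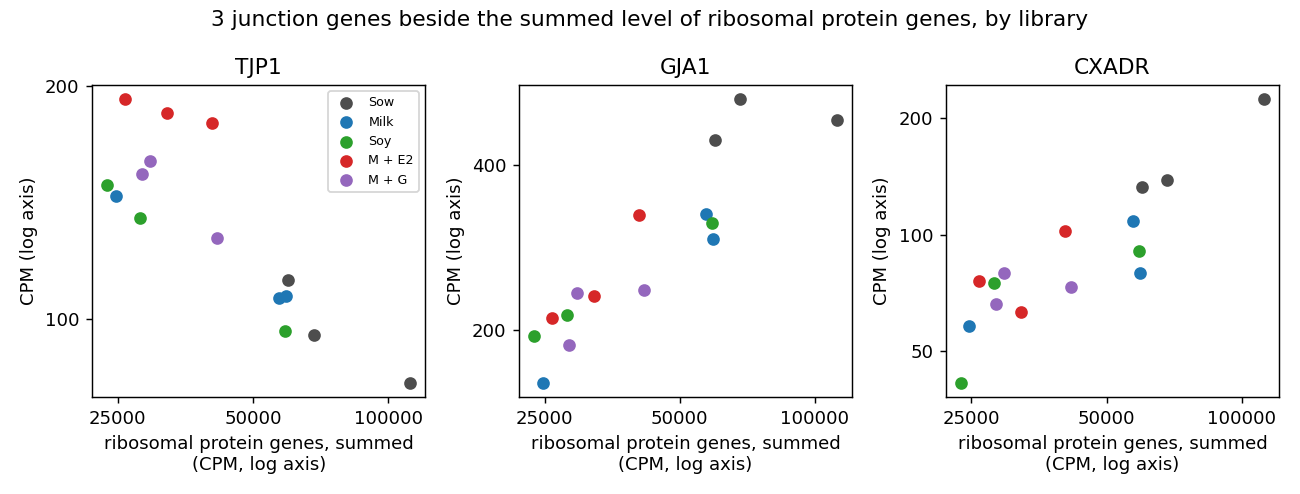
Level of TJP1, GJA1 and CXADR (CPM, log axis) against the summed level of 53 ribosomal protein genes (CPM, log axis), 1 point per library, coloured by diet group. GJA1 and CXADR are higher and TJP1 is lower in libraries with a higher ribosomal sum (r = 0.907, 0.881 and −0.853, n = 15). The M + E2 points of TJP1 lie above all other points, whatever their sums.

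Marker genes of testis cell types also differed between groups. Sertoli markers summed to 7821 to 8615 CPM in M + E2, 5269 to 5830 in Sow and 3414 to 5922 in Milk. Of the 13, 11 were higher in M + E2 than in Sow, of which 0 passed the adjusted p. KITLG, which passed it, was lower. CLU held the largest part of the M + E2 sum (mean 4411 CPM), followed by INHA (1241 CPM) and AMH (1196 CPM). Across libraries the sum of Sertoli markers ran with CDH2 (r = 0.738, permutation p = 0.0017, adjusted p = 0.0115; rho = 0.721, p = 0.00367, adjusted p = 0.0247), and r was 0.660 without Milk 2 and M + E2 3, the 2 libraries farthest from the median. It also ran with CLDN3 (r = 0.715, permutation p = 0.00277, adjusted p = 0.0150; rho = 0.707, p = 0.00458, adjusted p = 0.0247; r = 0.617 without the same 2). TJP1 ran with it too (r = 0.607, permutation p = 0.0171, adjusted p = 0.0463; rho = 0.650, p = 0.0102, adjusted p = 0.0460; r = 0.535 without the same 2). KRT8 ran against it (r = −0.694, permutation p = 0.00436, adjusted p = 0.0196), with r = −0.808 without these 2 libraries, although its rho of −0.600 (p = 0.0213, adjusted p = 0.0720) did not pass. CLDN11 gave r = 0.660 (permutation p = 0.00803, adjusted p = 0.0310) but a rho of 0.511 that did not pass (p = 0.0547, adjusted p = 0.164), and ITGB1 r = −0.637 (permutation p = 0.0102, adjusted p = 0.0346) with a rho of −0.371 (p = 0.174, adjusted p = 0.336). Leydig markers summed to 12891 to 13744 CPM in M + E2 against 19194 to 19820 in Sow and were lower for 4 of 4, with STAR, the cholesterol transporter of steroid synthesis, called (log2 difference −1.53, adjusted p = 0.0449). KRT8 ran with the Leydig sum (r = 0.605, permutation p = 0.0171, adjusted p = 0.0463; rho = 0.618, p = 0.0167, adjusted p = 0.0643; r = 0.622 without Milk 2 and M + E2 3). Germ cell markers, 5 of 8 measured, summed to 294 to 330 CPM in M + E2 and 179 to 219 CPM in Sow, without overlap, and to 187 to 315 CPM in Soy. The 8 endothelial markers summed to 685 to 867 CPM in M + E2 and 358 to 496 CPM in Sow, without overlap. The other formula groups also lay above Sow, at 606 to 1256 CPM (Milk), 510 to 1287 CPM (Soy) and 701 to 889 CPM (M + G). Macrophage markers, 6 in all, summed to 156 to 163 CPM in M + E2 and 127 to 142 CPM in Sow. In M + E2 against Sow, 3 of 5 germ cell, 6 of 8 endothelial and 4 of 6 macrophage markers were higher, and the rest were lower. KIT held the largest part of the germ cell sum in M + E2 (mean 218 CPM). DDX4 and UCHL1 were lower (log2 differences −0.60 and −0.54). Of all genes tested, 58.8% did not overlap between M + E2 and Sow. Of the germ cell, endothelial and macrophage lists 0 genes passed the adjusted p. How many of all genes follow the Sertoli or the Leydig sum as closely was not counted. The part of cell makeup in the differences of KRT8, TJP1 and CLDN3 was not tested.

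In 3 libraries markers of peritubular myoid cells, the smooth muscle-like cells around the tubule, were high. Milk 2, Soy 3 and M + G 2 had 3448, 4347 and 2429 CPM summed over 6 myoid markers, whereas the other 12 libraries had 289 to 1011 CPM. They held the 3 highest levels of ITGB1 (440, 369 and 372 CPM) and the 3 lowest of CLDN11 (94.5, 125 and 109 CPM). Their sums of Sertoli markers, 3414, 4109 and 4070 CPM, were the lowest of the 15. Without them the difference of M + E2 from Milk was −0.02 for ITGB1 and 0.06 for CLDN11 on the log2 scale, KRT8 was called lower in M + E2 than in Sow (−1.44, adjusted p = 0.0202) and higher in Soy than in M + E2 (1.80, adjusted p = 0.0362), where 9.95% and 0.534% of all genes were called, and the other comparisons still called 0 of the 9 genes. Markers of rete testis or epididymal epithelium, 4 of 7 measured, were scarce at 2.66 to 14.7 CPM in sum, apart from 57.4 CPM in M + G 2, a library in which KRT8, a keratin of such epithelia, was 305 CPM. In Soy 2, where KRT8 was also 305 CPM, that sum was 7.13 CPM.

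Other genes of the same junctions, 59 in 5 classes, were tested in the same fit. In M + E2 against Sow, 38 were higher and 21 lower (median log2 difference 0.29), and 3 were called (5.08%, beside 5% of all genes). JUP, or plakoglobin, which links cadherins of desmosomes to filaments, was higher by 1.12 on the log2 scale (SE 0.27, adjusted p = 0.0396; 156 against 68.6 CPM). TLN1, or talin, which ties integrins to actin, was higher by 1.35 (SE 0.37, adjusted p = 0.0466; 509 against 191 CPM). ACTR3, a subunit of the complex that branches actin filaments, was lower, with a log2 difference of −1.12 (SE 0.31, adjusted p = 0.0474; 152 against 315 CPM). CGNL1, or paracingulin, a partner of TJP1 at tight junctions, passed the adjusted p at a log2 difference of 0.99 (SE 0.28, adjusted p = 0.0476), just under 2-fold, and was the only one of 17 tight junction genes to do so. Of 4 other gap junction genes 0 passed. The class medians were −0.03 for tight junctions, 0.32 for adherens junctions and the ectoplasmic specialization, 0.17 for gap junctions, 0.49 for desmosomes and intermediate filaments and 0.45 for integrins and focal adhesions, against 0.01 over all genes.

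**Figure D4:**
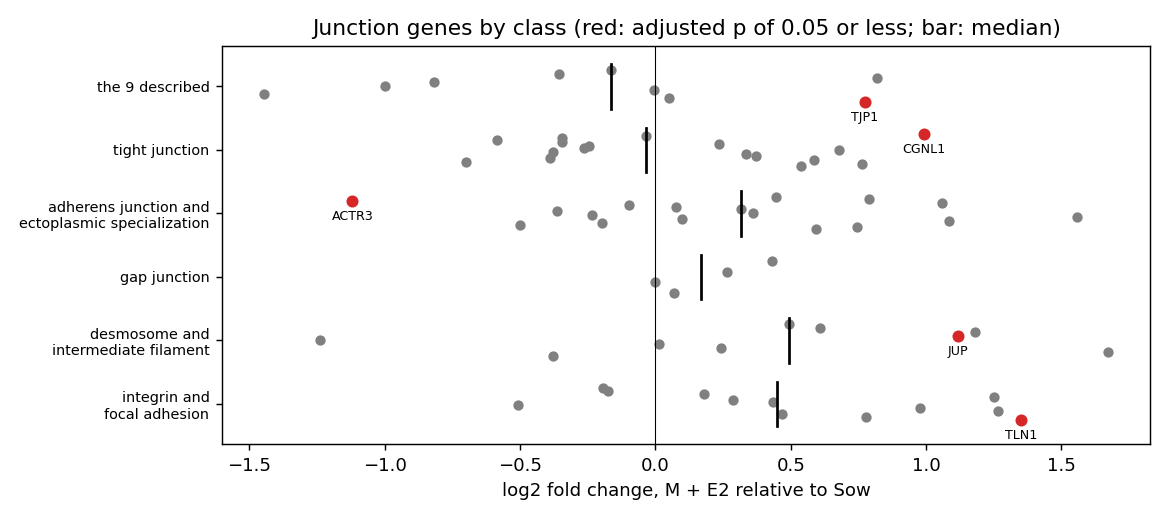
Log2 fold change in M + E2 relative to Sow of the 9 junction genes described (top row) and of 59 other junction genes in 5 classes, 1 point per gene. Bars are class medians, and genes with an adjusted p of at most 0.05 are red and named. ACTR3 lies to the left of 0, and TJP1, CGNL1, JUP and TLN1 lie to the right.

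In the other 7 comparisons 0 of these 59 genes were called or passed the adjusted p, with median log2 differences of −0.05 to 0.43. Against Milk the largest differences of M + E2 in their classes were those of CLDN1, a claudin of many epithelia, at −2.27 (SE 0.80, adjusted p = 0.212; 1.91 against 9.33 CPM), of ESPN, or espin, an actin bundling protein of the ectoplasmic specialization, at 1.37 (SE 0.39, adjusted p = 0.191; 87.0 against 33.1 CPM), and, beside the sparse KRT18, of DSP, or desmoplakin, at 1.17 (SE 0.48, adjusted p = 0.250).

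Pairs of the 9 genes were then compared within diets. After each library's deviation from its group mean was taken, TJP1 and GJA1 gave the lowest p of a pair (r = −0.771, exact permutation p = 0.00707 within groups, adjusted p = 0.191 over 36 pairs), and TJP1 and CDH2 gave r = 0.708 (exact p = 0.0109, adjusted p = 0.191). An exact p under 0.05 was also reached by CLDN11 and ITGB1 (r = −0.724, exact p = 0.0190, adjusted p = 0.191), GJA1 and CXADR (r = 0.728, exact p = 0.0212, adjusted p = 0.191) and TJP1 and CXADR (r = −0.741, exact p = 0.0325, adjusted p = 0.234). None of the 36 pairs passed the adjusted p.

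Genes with the most similar profile to each junction gene were named by Pearson's r of log2 CPM over the 15 libraries, out of 12291 tested genes with a symbol. TJP1 was most like BAZ1B (0.984), YLPM1 (0.981) and PTPN13 (0.979), and CXADR was most like USP3 (0.984), ADAM10 (0.974) and METAP1 (0.972). GJA1 was most like NAB1, MGAT4C and PRKRA (0.952, 0.952 and 0.949), and ITGB1 most like COLEC12, IL1R1 and KDELR2 (0.949, 0.947 and 0.944). CDH2 was closest to GFPT2, LRRC7 and SLC4A8 (0.902, 0.901 and 0.885), and CLDN3 to PFKM, TYRO3 and RTL5 (0.899, 0.866 and 0.860). KRT8 was closest to LIMK2, VDAC1 and ROGDI (0.894, 0.834 and 0.831). CLDN11 was closest to IGSF11, an adhesion protein, to AMHR2, the receptor of anti-Müllerian hormone, and to CYP4F8 (0.879, 0.865 and 0.847). OCLN had the loosest neighbours, IL16, RUBCNL and SUGP1, at 0.758, 0.742 and 0.738.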

How the data were processed

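RNA of whole testes was sequenced in 15 piglets. The authors trimmed reads, mapped them in the CLC Genomics Workbench to a curated pig gene library and then to the Ensembl pig genome, and deposited unnormalized read counts per gene. Which mapping step the table holds, strand and the treatment of reads shared by close copies were not given in the sources used here. No value column was left unused. Groups were taken from the labels.

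Groups were compared with edgeR 4.0.16 in R 4.3.3 (TMM, filterByExpr at a minimum count of 10, quasi-likelihood F test, 5 groups in 1 fit without Sow 2, limma 3.58.1), with Benjamini-Hochberg adjustment over all genes tested. DESeq2 1.42.0, edgeR's exact test, other filters and scalings and leaving out each library were alternatives. p-values of the group tests measure the spread between piglets. Those of the relations with the ribosomal and marker sums come from permutations of libraries across all diets. The members and lists were chosen with earlier results of these data known. All 9 members are named in M + E2 against Sow and Milk, and elsewhere those past 2-fold or an adjusted p of 0.05. Other values of CXADR, GJA1, CDH2 and CLDN3, and CGNL1, KITLG, KRT18, KIT, DDX4 and UCHL1, were named after their values were seen. From other lists, called genes are named, or those with the largest change.

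Same-numbered Milk and M + G libraries deviated together (r = 0.231, 0.493 and 0.413), and their numbers were treated as a possible pairing. Neither the labels nor the study's methods name a pairing, and the methods describe a random choice of piglets from many litters. Milk 2 and M + G 2, with r = 0.493, were both rich in myoid markers. No other 2 groups had 3 numbers in common with every r above 0.1, although Sow and Milk shared 2 numbers with r = 0.14 and 0.291.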

Additional observations from a re-analysis of the deposited data

How the results depend on the processing

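Counts of called members depended on the Sow libraries. In M + E2 against Sow, all 3 Sow libraries gave 2 (CXADR, KRT8), where 18.1% of all genes were called. By adjusted p alone they gave 5 (CLDN3, TJP1, GJA1, CXADR, KRT8), where 37.7% of all genes passed. A fit of only these groups, no filter and edgeR's exact test gave 1 each (KRT8), beside 12.3%, 3.89% and 12.6% of all genes. The Wald test of DESeq2 and leaving out Milk 2, Soy 3 and M + G 2 also gave 1 each (KRT8), beside 8.5% and 9.95%. Adjusted p alone and library totals without TMM gave 1 each (TJP1), beside 7.97% and 7.91%. Leaving out 1 library gave 0 to 3, with 3 when Sow 2 replaced Sow unnumbered or Sow 3, beside 18.4% and 21.3% of all genes. In M + G against Sow the count was 2 with all 3 Sow libraries (10.3% of all genes). In that fit 3 passed by adjusted p alone (TJP1, GJA1, CXADR), beside 22.3% of all genes. The count was 1 (GJA1) with the groups alone, DESeq2 or the exact test (5.38%, 2.11% and 6.48% of all genes). Leaving out 1 library gave 0 to 2, beside 0.00642% to 13% of all genes. M + E2 against Milk gave 1 with DESeq2 (CLDN3) and 1 with the exact test (KRT8), beside 0.78% and 0.636% of all genes. Leaving out 1 library gave 0 to 1 (CLDN3 without Milk 3, beside 8.04% of all genes). Soy against M + E2 gave 1 (KRT8) with DESeq2, the exact test and without the 3 myoid-rich libraries, beside 0.915%, 1.39% and 0.534% of all genes. Any diet difference was passed by 3 with all Sow libraries, 3 by DESeq2's likelihood ratio test and 0 to 1 leaving out 1 library (GJA1 without Milk 3). The share of all genes that passed it in these alternatives was not counted, so these counts cannot be set against all genes.

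The fit with a replicate block, on the 13 numbered libraries with Sow 2, called 3, 2 and 2 members against Sow in M + E2, M + G and Soy respectively, and 3 for any diet, where 20.6%, 13% and 15.8% of all genes were called in these comparisons. The same libraries without the block called 3, 2, 2 and 1, beside 19.1%, 11% and 14.4% of all genes in the comparisons with Sow. For any diet the share of all genes was not counted in either fit. The block changed no call of M + G against Milk, the groups whose numbers were treated as a possible pairing, nor of the other comparisons.

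Over all genes, alternatives called 6 to 3324 in M + E2 against Sow (781 in the reported fit, 6 without M + E2 1). Against Sow they called 1 to 2048 in M + G, 0 to 2477 in Soy and 0 to 32 in Milk. Against Milk they called 0 to 1256 in M + E2 (1256 without Milk 3), 0 to 2 in M + G and 0 to 6 in Soy. In Soy against M + E2 they called 0 to 203. By adjusted p alone with all 3 Sow libraries, without the 2-fold limit, 5776 genes passed in M + E2 and 3421 in M + G against Sow. Library totals shifted the median of all genes in M + E2 against Sow from 0.01 to 0.31. With them the log2 differences from Sow in M + E2 were 1.075 for TJP1, 1.124 for CLDN3, −0.69 for GJA1, −0.51 for CXADR and −1.14 for KRT8.

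Of the fold changes followed, 266 kept direction and side of the threshold, 51 newly passed, 3 no longer passed and 26 changed sign. ITGB1 (M + E2 against Sow) was 0.0972 with all Sow libraries, 0.0161 in the pair alone, 0.0640 with the replicate block, 0.0385 without it, 0.0649 without filter, 0.0190 at 10 counts in every library, 0.00733 with DESeq2 size factors, 0.298 with library totals, 0.00734 with DESeq2, 0.0161 with the exact test and −0.0309 to 0.136 leaving out 1 library. Leaving out 1 library, OCLN ranged from −0.0198 (without M + E2 3) to 0.266 and CDH2 from −0.229 to 0.00667 (without Sow 3), and CDH2 was 0.138 with library totals. Against Milk, GJA1 reached 0.181 and CXADR 0.178 with library totals, GJA1 0.0350 without the myoid-rich libraries, CXADR 0.0148 with the replicate block, and leaving out 1 library GJA1 ranged from −0.307 to 0.163 and CXADR from −0.274 to 0.216. The cause of these shifts was not tested. Depth limits CLDN3 and OCLN most.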
